A study of Homo sapiens with 4 samples.

Results

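Ribosomes are built in the nucleolus, and the genes for that work are the subject here: the MYC transcription factor network, the RNA polymerase I machinery, the small nucleolar ribonucleoproteins, and the processing factors of both ribosomal subunits. The genes were taken by symbol from a list of 47. Of these, 42 had a row in the deposited count table of 35820 rows, and all 42 passed the filter on low counts. NOP10, RRP9, LTV1, BOP1 and RRS1 were not analysed here. The members were sorted into 8 groups by their known role. RNA was measured in HCT116, a line grown from a human colon carcinoma, in 4 libraries. The 2 wild-type (WT) libraries were of the parental line, and the 2 knockout (KO) libraries were of E2-4, a TOP3B-KO line made with CRISPR and a guide RNA to exon 2 of TOP3B. No treatment or time course was applied, and both groups were grown in the same serum-containing medium. Because 1 KO line was compared with its parent, clone and genotype cannot be told apart. Whether a group's 2 libraries are separate cultures is not stated in the labels, so the tests measure the spread between these libraries, which may be technical.

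A ribosome starts as one long precursor rRNA that RNA polymerase I copies from the rDNA repeats. Box C/D and box H/ACA small nucleolar ribonucleoproteins (snoRNPs) modify that precursor, the small-subunit processome folds and cuts its first part, and a chain of large-subunit factors matures the rest. MYC, paired with its partner MAX, binds the E-box sequence CACGTG and drives many of these genes, and colon carcinoma cells with active WNT signalling are known for high MYC. TOP3B, a topoisomerase that acts on RNA and DNA, was removed in the study to ask how it affects R-loops, the RNA-DNA hybrids formed during transcription, and the transcriptome.

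Since MYC with MAX binds the E-box, the promoters of the members were searched for it. Promoter windows from RefSeq (GRCh38.p14, 250 bases before to 50 bases after the annotated start) were found for 39 of the 47 members. The motif CACGTG, which reads the same on both strands, was present in 14 of the 39 windows (35.9%), against 7.43% of all 27305 windows and 10.3% of the 9442 windows of tested genes. The related motif CACGCG, searched on both strands, was present in 11 member windows (28.2%), against 11.4% of all windows and 18.5% of those of tested genes. The motifs differ in 1 letter, only FBL held both, and 24 member windows (61.5%) held at least 1 of them, against 26.7% of tested genes. The member windows include those of NOP10, RRP9 and LTV1, which were not tested and all held CACGTG. Among tested members alone, 11 windows held CACGTG and 25 did not, while 21 held at least 1 of the motifs and 15 held neither. A match describes the letters in the window and not a bound site. To show where the E-box lies, 30 bases are given for 5 members that the results describe, with the E-box in capitals. The motif began 238 bases before the start in MXD4, at chr4:2262330-2262359 (minus strand), and 193 bases before it in MNT, at chr17:2401236-2401265 (minus strand). It began 34 bases after the start in NME1, at chr17:51153579-51153608 (plus strand), 6 bases after it in FBL, at chr19:39846356-39846385 (minus strand), and 28 bases after it in BYSL, at chr6:41921515-41921544 (plus strand).
MXD4: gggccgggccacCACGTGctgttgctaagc
MNT: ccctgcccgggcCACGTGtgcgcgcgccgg
NME1: caagtgctgcgaacCACGTGggtcccgggc
FBL: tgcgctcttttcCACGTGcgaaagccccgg
BYSL: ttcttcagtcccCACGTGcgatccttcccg

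The libraries held between 10450048 and 16143634 estimated counts in genes. Levels are given as CPM, counts scaled to a common library size with edgeR's TMM factors, and each set of 4 values runs in the order of WT replicates 1 and 2 and KO replicates 1 and 2. WT replicate 1 stood apart in scale, with a TMM factor of 0.858 against 1.04 to 1.06 in the others. TOP3B itself, the targeted gene, stood at 57.0 and 66.4 CPM in WT and 43.9 and 54.6 CPM in KO (log2 fold change -0.32 ± 0.17 SE, adjusted p = 0.522 by edgeR). An edit in exon 2 need not remove the RNA, so the level is no check of the label. The labelled cell type was checked against a list of 9 epithelial and colon markers. KRT8, KRT18, KRT19, EPCAM, CDH1 and CLDN4 were detected in every library. CLDN4 had 31.1 and 36.6 CPM in WT and 19.0 and 17.8 CPM in KO. CDX2 had 46 and 44 estimated counts in WT and 56 and 0 in KO. The 0 in KO replicate 2 does not show that the RNA was absent, and its cause was not tested. VIL1 had 1 count in all and KRT20 was at 0. The summed level of that list, mostly KRT19, was 2612 and 2151 CPM in WT and 1539 and 1468 CPM in KO; its part in the results on the members was not tested. Leukocyte markers summed to between 1.23 and 2.62 CPM, with PTPRC and CD3E at 0, and fibroblast markers to between 0.632 and 1.72 CPM, with COL1A2, COL3A1 and LUM at 0. Endothelial markers summed to at most 0.0818 CPM.

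Few nucleolar genes passed a test of the difference between the KO line and its parent. By edgeR, 0 of the 42 members passed at an adjusted p of 0.05, where 1 of 12269 genes did (0.00815%). At an unadjusted p under 0.05, 1 member was lower, LYAR, against a background of 6.21% of genes, and 1 was higher, POLR1A, against 4.97%; limma-voom also called 0 members after adjustment. DESeq2 called 1 member, LYAR, while it called 183 of 13258 genes (1.38%). For 32 of the 42 members the 95% interval of the log2 fold change lay within a 2-fold change in either direction, and for 17 within a 1.5-fold change. The same held for 50.7% and 22.3% of all tested genes. These intervals hold for single genes and not for all members at once.

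The direction of the small differences was uneven. Of the 42 members, 29 had a log2 fold change above 0 (69%), against 48.5% of tested genes, and the median was 0.13 against -0.01 over all tested genes. In 21 members both KO libraries lay above both WT libraries (50%), against 23.5% of tested genes, and in 5 they lay below (11.9%), against 23.5%. The members' fold changes are not independent, since all rest on the same 4 libraries, and no test of the list was made. Members were also chosen with earlier results of these data known, so these shares may come in part from that choice. Library scaling moved the whole table. With no scaling factors the median of all genes rose to 0.14 and that of the members to 0.29, and 27 members had both KO libraries above both WT libraries, against 32.4% of genes, with 1 below, against 13.4%. The gap between the 2 medians was 0.15 with TMM factors and 0.14 with none. That gap is no check of the members' shift, because a change of factors moves all genes by nearly the same amount. Library composition also moved with the groups: RN7SK, SNORD3A and RMRP, abundant small noncoding RNAs, together took 11.4% and 9.9% of counts in WT and 7.78% and 7.33% in KO. With these 3 left out before scaling the members' median was 0.14 and that of all genes -0.01, with 30 members above 0, against 49.2% of genes. Without WT replicate 1 the members' median was 0.14, 32 members were above 0 (against 50.8% of genes), and the KO libraries lay above the remaining WT library in 27 (35.6% of genes) and below it in 7 (36.1%).

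**Figure D1:**
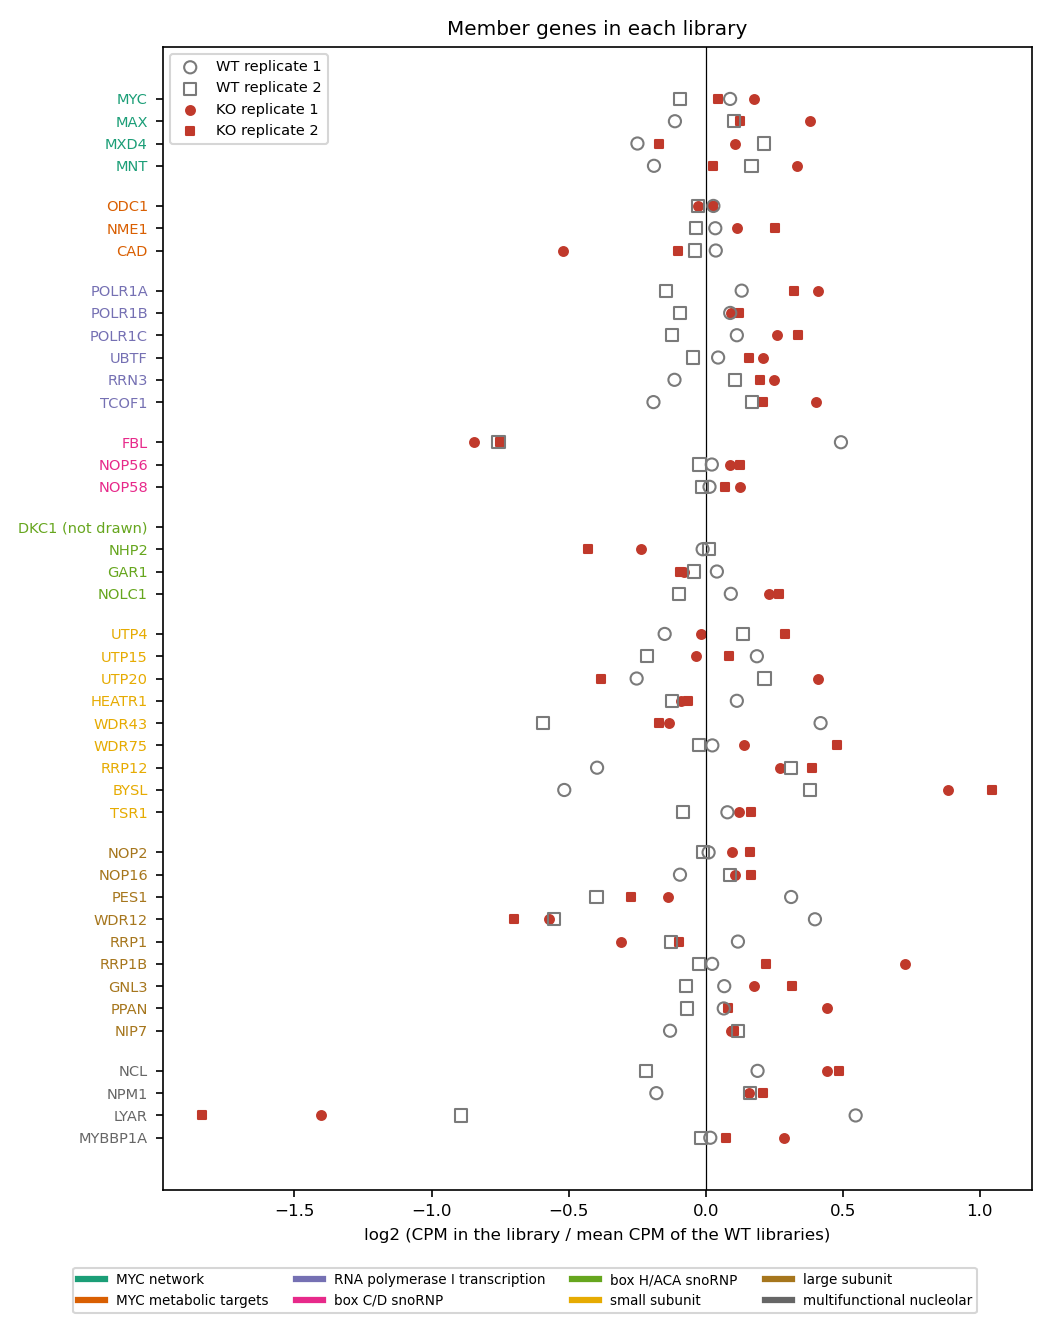
Level of each member in each library, as log2 of its CPM over the mean CPM of the WT libraries (horizontal axis), with genes on the vertical axis coloured by role. Open grey symbols are WT and filled red symbols KO, circles are replicate 1 and squares replicate 2. All 6 RNA polymerase I genes have both KO symbols to the right of both WT symbols, while WT replicate 1 lies far to the right in LYAR, FBL, WDR12, WDR43 and PES1. DKC1 is not drawn because 1 library is at 0.

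MYC itself had nearly the same level in all libraries, at 430.3 and 379 CPM in WT and 457 and 417 CPM in KO. KO replicate 1 was the highest and WT replicate 2 the lowest, and the KO replicate 2 value fell between the WT libraries, so the groups overlapped (log2 fold change 0.11 ± 0.13 SE, 95% interval -0.22 to 0.44, adjusted p = 0.740 by edgeR). MAX, the obligate partner of MYC, stood at 27.2 and 31.7 CPM in WT and 38.4 and 32.1 CPM in KO. Here both KO libraries were above both WT libraries, by less than 1 CPM between WT replicate 2 and KO replicate 2 (log2 fold change 0.26 ± 0.18 SE, 95% interval -0.19 to 0.71, adjusted p = 0.590 by edgeR). MNT, which pairs with MAX to repress the same E-box genes, had 7.93 and 10.1 CPM in WT and 11.4 and 9.21 CPM in KO (log2 fold change 0.19 ± 0.27 SE, adjusted p = 0.789 by edgeR). MXD4, another MAX partner that represses, had 3.39 and 4.66 CPM in WT and 4.33 and 3.58 CPM in KO (log2 fold change -0.03 ± 0.35 SE, adjusted p = 0.980 by edgeR). In both repressors the WT libraries lay further apart than the group means, and the KO values overlapped them. With 44 to 61 counts a library, MXD4 had an interval from -0.94 to 0.88, so that a 1.5-fold change either way would not have been detectable.

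The enzymes commonly used as MYC target genes shared no common direction. ODC1, which makes the polyamine putrescine, had 975 and 937 CPM in WT and 937 and 973 CPM in KO, so its groups interleaved (log2 fold change 0.00 to 2 decimals, between -0.31 and 0.30 by the 95% interval). NME1, a nucleoside diphosphate kinase whose window holds the E-box shown above, had 177 and 168 CPM in WT and 186 and 205 CPM in KO (log2 fold change 0.18 ± 0.12 SE, 95% interval -0.11 to 0.48, adjusted p = 0.563 by edgeR). Both KO libraries were the higher pair. Its reads can be shared with the readthrough gene NME1-NME2, which had 618 and 515 counts in WT and 613 and 805 in KO, so the estimate of either is uncertain. CAD, the enzyme of the first steps of pyrimidine synthesis, had 14.5 and 13.7 CPM in WT and 9.84 and 13.1 CPM in KO (log2 fold change -0.29 ± 0.24 SE, 95% interval -0.90 to 0.31, adjusted p = 0.637 by edgeR). KO replicate 1 was well below the other 3 libraries of CAD, and KO replicate 2 was within 1 CPM of WT replicate 2.

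The 6 genes of RNA polymerase I transcription were all above 0, with log2 fold changes from 0.11 to 0.37 and a median of 0.26, and in all 6 both KO libraries lay above both WT libraries, against 23.5% of tested genes. POLR1A, the largest catalytic subunit, had 156 and 129 CPM in WT and 189 and 178 CPM in KO, or 142 ± 19.2 CPM in WT and 183 ± 7.88 CPM in KO (SD, n = 2 each). The lower KO library was 1.14 times the higher WT library (log2 fold change 0.37 ± 0.14 SE, 95% interval 0.01 to 0.72, adjusted p = 0.445 by edgeR). POLR1C, a subunit shared with RNA polymerase III, had 39.7 and 33.7 CPM in WT and 44.0 and 46.3 CPM in KO (log2 fold change 0.30 ± 0.15 SE, 95% interval -0.10 to 0.69, adjusted p = 0.517 by edgeR). YIPF3 and XPO5 overlap POLR1C on the opposite strand, and whether their reads entered its estimate is not known. For POLR1B, the other large catalytic subunit, the values were 599 and 527 CPM in WT and 599.7 and 613 CPM in KO, where KO replicate 1 exceeded WT replicate 1 by under 1 CPM (log2 fold change 0.11). UBTF, which coats the rDNA and opens it for transcription, had 410.4 and 385 CPM in WT and 460.2 and 444 CPM in KO (0.18), and RRN3, the factor that brings the polymerase to its promoter, 65.3 and 76.0 CPM in WT and 84.0 and 81.0 CPM in KO (0.22). TCOF1, the nucleolar phosphoprotein treacle, had 228 and 292 CPM in WT and 343 and 300.4 CPM in KO (0.31). None of the 6 passed after adjustment, with edgeR adjusted p from 0.445 to 0.743. Without WT replicate 1 the 6 log2 fold changes ran from 0.12 (RRN3) to 0.51 (POLR1A). RRN3 has 2 copies in the table with over 100 counts in every library, RRN3P1 and RRN3P3, that could share its reads. PDXDC1, which overlaps RRN3 on the opposite strand, had 490 and 479 CPM in WT and 472 and 470 CPM in KO. Whether its reads entered the RRN3 estimate is not known.

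The 3 core proteins of box C/D snoRNPs differed in direction. FBL, the methyltransferase of these particles, had 541 and 228 CPM in WT and 214 and 229 CPM in KO. WT replicate 1 was 2.38 times WT replicate 2, and WT replicate 2 lay between the KO libraries (log2 fold change -0.80 ± 0.41 SE, 95% interval -1.84 to 0.24, adjusted p = 0.515 by edgeR). Without WT replicate 1 the log2 fold change of FBL was -0.04. NOP56 and NOP58, the paired scaffold proteins of the particle, were steadier. NOP56 had 799.8 and 775 CPM in WT and 837 and 859 CPM in KO (log2 fold change 0.11 ± 0.12 SE, 95% interval -0.19 to 0.40, adjusted p = 0.725 by edgeR). NOP58 had 68.9 and 67.6 CPM in WT and 74.5 and 71.7 CPM in KO (log2 fold change 0.10), and in both genes the KO pair was above the WT pair by a margin of a few percent.

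Of the box H/ACA proteins, NHP2, a core subunit, was among the members with both KO libraries below both WT libraries, at 17.3 and 17.6 CPM in WT and 14.8 and 13.0 CPM in KO (log2 fold change -0.33 ± 0.19 SE, 95% interval -0.82 to 0.15, adjusted p = 0.537 by edgeR). RMND5B overlaps NHP2 on the opposite strand and had 46.3 and 50.9 CPM in WT and 61.9 and 52 CPM in KO. Whether its reads entered the NHP2 estimate is not known. GAR1, a core subunit that helps release the product, had 89.0 and 84.1 CPM in WT and 81.9 and 81.2 CPM in KO; the separation was narrow and its log2 fold change was -0.09. NOLC1, a chaperone that carries snoRNPs to the nucleolus, lay the other way, with 837 and 734 CPM in WT and 922 and 946 CPM in KO (log2 fold change 0.25 ± 0.13 SE, 95% interval -0.09 to 0.58, adjusted p = 0.520 by edgeR). DKC1, the pseudouridine synthase, cannot be read from its estimates, which were 69 and 0 counts in WT and 10 and 63 in KO. Why they lay so far apart within each group was not tested. By counting error alone, the 0 in WT replicate 2 allows up to 0.245 CPM. The DKC1 interval spanned -4.29 to 3.92. The only WT value of DKC1 without WT replicate 1 is that 0.

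Of the small-subunit factors 7 of 9 tested members were above 0, against 48.5% of tested genes, with a median of 0.14. In 3 of the 9 both KO libraries lay above both WT libraries and in 0 below, against 23.5% and 23.5% of tested genes. WDR75, a part of the early processome, had 65.6 and 63.4 CPM in WT and 71.1 and 89.8 CPM in KO (log2 fold change 0.32 ± 0.16 SE, 95% interval -0.08 to 0.72, adjusted p = 0.502 by edgeR). BYSL, which acts late in small-subunit assembly, had the highest log2 fold change of all members, at 1.23 and 2.29 CPM in WT and 3.25 and 3.64 CPM in KO, but from 16 and 28 counts in WT and 36 and 62 in KO (log2 fold change 0.97 ± 0.45 SE, 95% interval -0.20 to 2.13, adjusted p = 0.496 by edgeR). The WT libraries of BYSL were 1.86 times apart, and without WT replicate 1 its log2 fold change was 0.59. TSR1, a late cytoplasmic maturation factor, was the other separated member (0.14). SGSM2 overlaps TSR1 on the opposite strand and had 87.3 and 107 CPM in WT and 93 and 88.7 CPM in KO. Whether its reads entered the TSR1 estimate is not known. HEATR1, UTP4 and UTP15, early processome proteins that also act on rDNA transcription, had log2 fold changes of -0.08, 0.15 and 0.02. WDR43, a partner of these, had 146 and 72.5 CPM in WT and 99.6 and 97.1 CPM in KO, with the KO libraries between the WT libraries. RRP12, an export factor, and UTP20, of the processome, had log2 fold changes of 0.33 and 0.06, the latter from 20 to 27 counts a library. With WT replicate 1 left out, RRP12 had 0.02, UTP20 -0.16 and WDR43 0.44.

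Among large-subunit factors 6 of 9 were above 0, against 48.5% of tested genes. In 5 of the 9, NOP2, NOP16, RRP1B, GNL3 and PPAN, both KO libraries lay above both WT libraries, against 23.5% of tested genes. In 1, WDR12, both lay below, against 23.5% of tested genes. GNL3 (nucleostemin), a GTPase of the nucleolus, had 213 and 194 CPM in WT and 229.6 and 253 CPM in KO (log2 fold change 0.25 ± 0.12 SE, 95% interval -0.07 to 0.56, adjusted p = 0.507 by edgeR). PBRM1 overlaps GNL3 on the opposite strand and had 278 and 304 CPM in WT and 283 and 351 CPM in KO. Whether its reads entered the GNL3 estimate is not known. NOP2, an rRNA methyltransferase, had 205 and 202 CPM in WT and 218 and 228 CPM in KO and the smallest standard error of the members (log2 fold change 0.13, SE 0.11). RRP1B, a nucleolar protein that binds the phosphatase PP1, had 9.47 and 9.16 CPM in WT and 15.4 and 10.8 CPM in KO, where KO replicate 1 stood above the other 3 (0.49). For NOP16 and NIP7, assembly factors of the precursor, the log2 fold changes were 0.14 and 0.10, and for PPAN 0.27. The readthrough gene PPAN-P2RY11 had 0 counts in WT and 59 and 41 in KO, so the estimate of PPAN is uncertain. WDR12 and PES1, which form the PeBoW complex with BOP1, both had their highest value in WT replicate 1. WDR12 had 137 and 70.7 CPM in WT and 69.7 and 63.8 CPM in KO (log2 fold change -0.64 ± 0.32 SE, 95% interval -1.46 to 0.19, adjusted p = 0.514 by edgeR), and PES1 had 85.4 and 52.2 CPM in WT and 62.5 and 56.9 CPM in KO (-0.20). Without WT replicate 1 the values were -0.08 for WDR12 and 0.19 for PES1. RRP1, a paralog of RRP1B, had -0.20.

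LYAR, a zinc finger protein of the nucleolus that promotes rRNA processing, had the largest difference of the 42 members. It had 166 and 61.1 CPM in WT and 42.9 and 31.7 CPM in KO, or 113 ± 73.9 CPM in WT and 37.3 ± 7.88 CPM in KO (SD, n = 2 each). Both KO libraries were below both WT libraries, and WT replicate 1 was 2.71 times WT replicate 2 (log2 fold change -1.61 ± 0.49 SE, 95% interval -2.87 to -0.34, adjusted p = 0.388 by edgeR and 0.02 by DESeq2). In DESeq2, 0.89% of genes were called lower. The DESeq2 call was lost when WT replicate 1 was left out (DESeq2 adjusted p = 0.849), and also with KO replicate 1 left out (0.0544) or KO replicate 2 (0.437). With WT replicate 2 left out it passed in DESeq2 (adjusted p = 9.13e-14) and in edgeR (adjusted p = 0.00623). Without WT replicate 1 its log2 fold change was -0.72. LYAR has no CACGTG and no CACGCG in its promoter window.

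MYBBP1A, a nucleolar repressor of RNA polymerase I, had 168 and 164 CPM in WT and 202 and 175 CPM in KO (log2 fold change 0.18 ± 0.12 SE, 95% interval -0.14 to 0.50, adjusted p = 0.588 by edgeR). NPM1, the histone chaperone nucleophosmin, had 638 and 807 CPM in WT and 807 and 834 CPM in KO, with WT replicate 1 the low library (log2 fold change 0.18, and 0.02 without that library). Its 49 pseudogene rows held 75 to 111 counts a library in all, against 8286 or more for NPM1. NCL, nucleolin, had 62 and 44 counts in WT and 63 and 100 in KO (log2 fold change 0.46, 95% interval -0.35 to 1.27). Nucleolin is known as one of the most abundant nucleolar proteins, while the RNA estimate here was at most 100 counts. Protein and RNA are unlike measures. How far the NCL estimate can be trusted, also between the groups, was not tested. Both KO values of NCL were above both WT values.

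**Figure D2:**
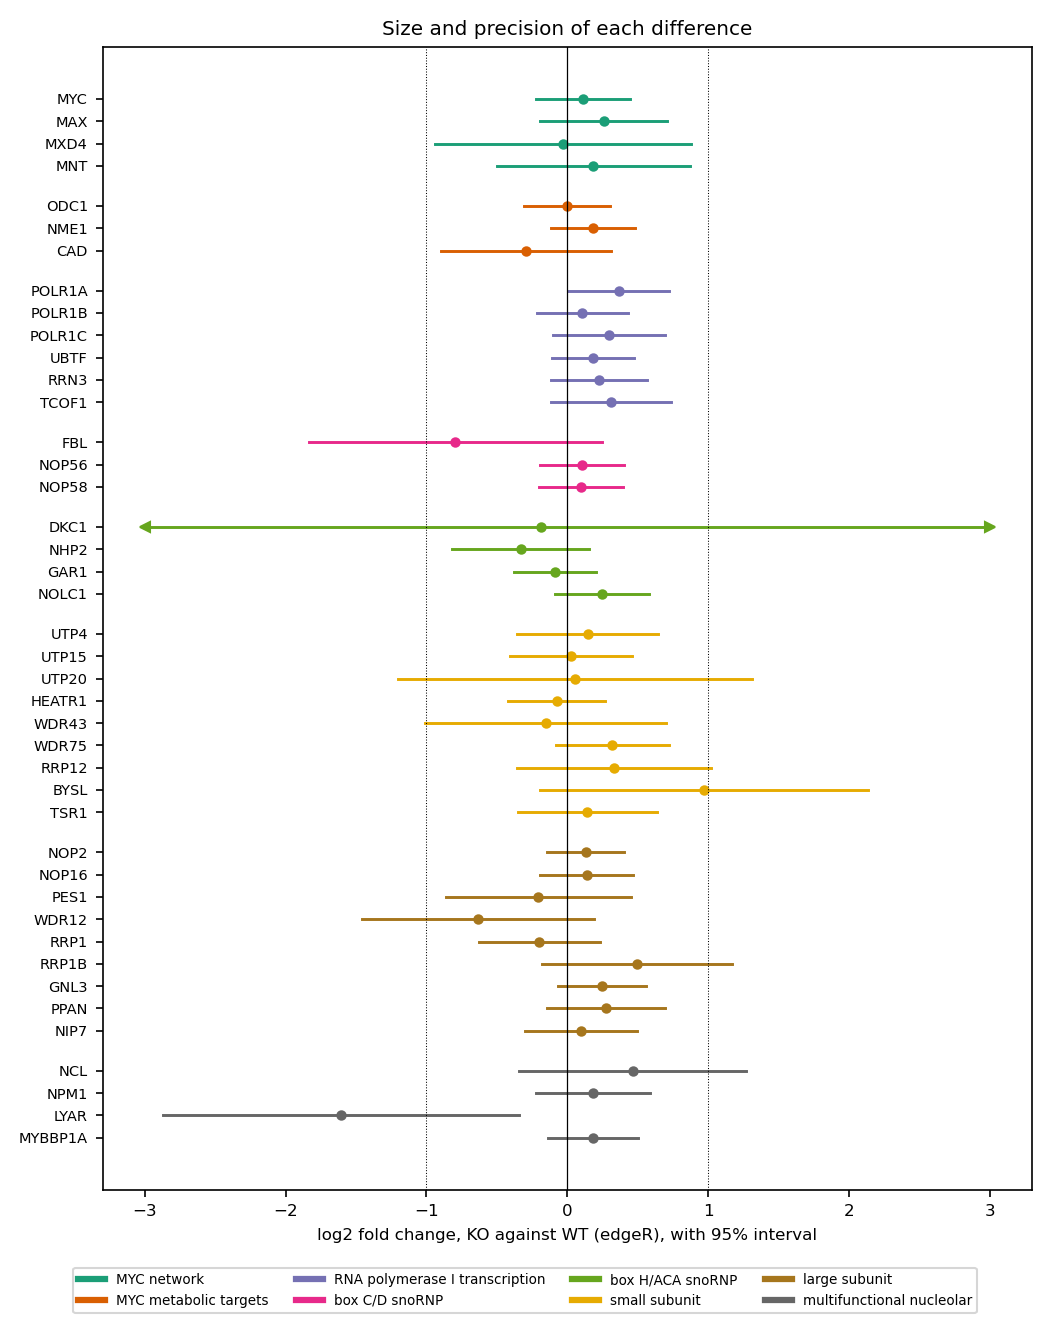
Log2 fold change of each tested member, KO against WT, from edgeR (horizontal axis; points) with its 95% interval (bars), coloured by role. Dotted lines mark a 2-fold change; 32 of the 42 intervals lie within them, and those of POLR1A and LYAR exclude 0. The DKC1 interval runs past both ends of the axis (arrows).

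Standard errors were smaller in deeper members. The 21 members with a mean of at least 1000 counts had a median SE of 0.13 on the log2 scale, the 16 with 100 to under 1000 counts 0.19, and the 5 below 100 counts (MXD4, DKC1, UTP20, BYSL and NCL) 0.45. FBL, with an SE of 0.41, and WDR43 and WDR12, with 0.33 and 0.32, were exceptions among the deep members. WT replicate 1 was over 1.5 times WT replicate 2 in 6 of the 42 members: FBL, WDR43, PES1, WDR12, LYAR and DKC1. That is 14.3% of the members, against 11.6% of tested genes. The reverse held in 2, RRP12 and BYSL (4.76%, against 13% of genes). The KO libraries were over 1.5 times apart in 2 members, DKC1 and UTP20 (4.76%, against 20.1% of genes). The 3 members with the lowest fold changes, LYAR, FBL and WDR12, were all among those 6. With WT replicate 1 as the only WT library, edgeR called these 3 members lower, where it called 3.48% of genes lower. DESeq2 called the same 3 lower, against 4.6% of genes, and 2 higher, TCOF1 and NPM1, against 1.27%; a lone library is assumed to vary like the other group. Some values above 0 came close to 0 when WT replicate 1 was left out, as in RRP12 and NPM1: the log2 fold change went from 0.19 to 0.02 in MNT and from 0.15 to 0.01 in UTP4. What sets this library apart was not tested.

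**Figure D3:**
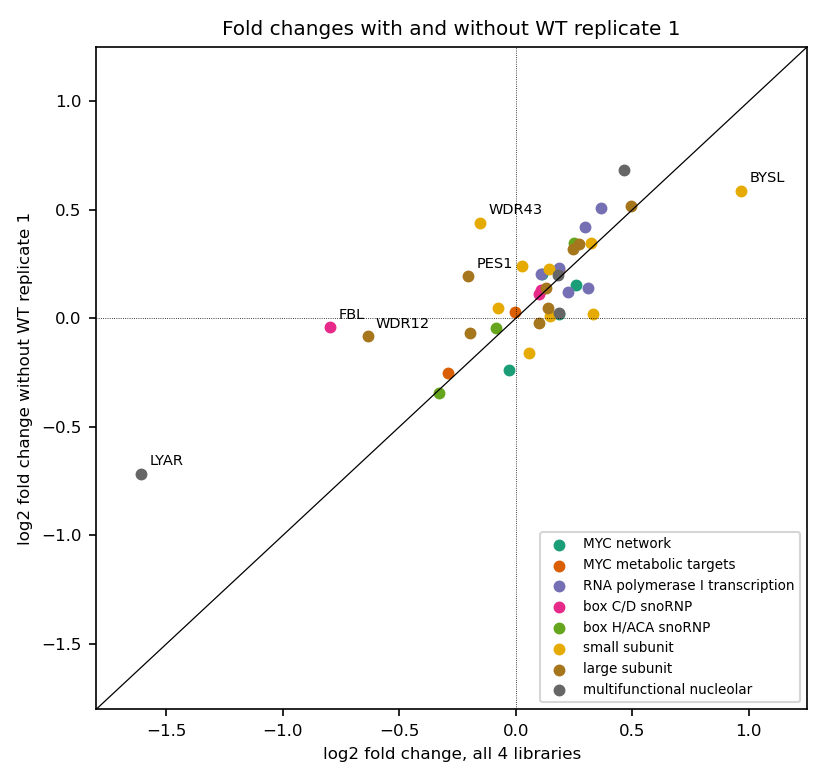
Log2 fold change of each member with all 4 libraries (horizontal axis) and without WT replicate 1 (vertical axis), coloured by role; the line marks equal values and DKC1 is left out. FBL, WDR12, WDR43 and PES1 move from below 0 to near or above it, and LYAR moves from -1.61 to -0.72.

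The rest of the same pathways was read from 6 lists of genes that are not members, with 137 tested genes in all. Of these 69 were above 0 and 68 below, with a median of 0.00 to 2 decimals. In 34 both KO libraries lay above both WT libraries and in 28 below, shares of 24.8% and 20.4% that lie near the background of 23.5% and 23.5%. The difference between these genes and the 42 members, of whom 50% lay above, was not tested. By edgeR 0 of the 137 passed after adjustment and 16 had an unadjusted p under 0.05, 7 lower and 9 higher, against 6.21% and 4.97% of all genes. DESeq2 called 2 of them, against 1.38% of genes.

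In the MYC network outside the members, 12 genes were tested, 4 above 0 and 8 below. Over all tested genes 48.5% were above 0, which is the share to set beside the counts of each list that follows. MXD1, a MAX partner that opposes MYC, had 0 counts in both WT libraries and 21 and 32 counts in KO, or 1.88 CPM over the KO libraries. Against a floor of 3 counts over the WT libraries it was at least 15.8-fold higher (adjusted p = 0.253 by edgeR and 0.0289 by DESeq2). The DESeq2 call was lost without WT replicate 1 (DESeq2 adjusted p = 0.470), WT replicate 2 (0.108) or KO replicate 2 (0.886), and DESeq2 gave no adjusted p without KO replicate 1. The floor covers counting error only, and an estimated count can be 0 because of how shared reads are divided. MYCBP, a MYC-binding protein, had the smallest p among those lower (log2 fold change -0.43 ± 0.24 SE, adjusted p = 0.528 by edgeR). Of 20 other metabolic target genes 12 were above 0; PRDX3, a mitochondrial peroxiredoxin, had 16.5 and 18.5 CPM in WT and 26.4 and 23.8 CPM in KO (log2 fold change 0.52 ± 0.17 SE, adjusted p = 0.410 by edgeR), and IMPDH2, of guanine nucleotide synthesis, had 9.00 and 7.12 CPM in WT and 3.43 and 1.06 CPM in KO (log2 fold change -1.87 ± 0.60 SE, adjusted p = 0.397 by edgeR).

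Of 15 other genes of RNA polymerase I and its promoter factors, 8 were above 0, against 48.5% of tested genes. Both KO libraries lay above both WT libraries in 5 (33.3%) and below in 4 (26.7%), against 23.5% and 23.5% of tested genes. POLR1E, a subunit found only in RNA polymerase I, had 9.70 and 9.82 CPM in WT and 16.5 and 17.2 CPM in KO (log2 fold change 0.79 ± 0.19 SE, adjusted p = 0.333 by edgeR). POLR2L, a small subunit shared by the nuclear polymerases, had 45.6 and 6.05 CPM in WT and 0 and 1.06 CPM in KO, so the WT libraries alone were 7.54 times apart (log2 fold change -5.41 ± 1.43 SE, adjusted p = 0.349 by edgeR). Among 8 other snoRNP and assembly genes, SNU13, the protein that binds first to box C/D RNAs, had 98.3 and 9.00 CPM in WT and 11.8 and 5.69 CPM in KO (log2 fold change -2.63 ± 1.12 SE, adjusted p = 0.472 by edgeR); as for FBL, WT replicate 1 was far above the other 3, and without it the log2 fold change was -0.05. RUVBL1, an ATPase of snoRNP assembly, had 0.31. The 39 other small-subunit genes split into 19 above and 20 below 0. NOL11, which acts in rDNA transcription and early processing, had 571 and 237 CPM in WT and 166 and 177 CPM in KO (log2 fold change -1.23 ± 0.41 SE, adjusted p = 0.410 by edgeR and 0.0462 by DESeq2) and was the other gene DESeq2 called; without WT replicate 1 its log2 fold change was -0.47. That call was lost without WT replicate 1 (DESeq2 adjusted p = 0.315), KO replicate 1 (0.450) or KO replicate 2 (0.357). DDX10, a helicase, had 0.78 with edgeR adjusted p = 0.410. Of 43 other large-subunit genes 21 were above 0, with NVL, an ATPase that removes assembly factors, at 27.9 and 36.6 CPM in WT and 50.1 and 52.4 CPM in KO (log2 fold change 0.67 ± 0.18 SE, adjusted p = 0.353 by edgeR) and SENP3, a SUMO protease, at 29.8 and 19.7 CPM in WT and 12.7 and 17.0 CPM in KO (log2 fold change -0.73 ± 0.28 SE, adjusted p = 0.445 by edgeR).

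**Figure D4:**
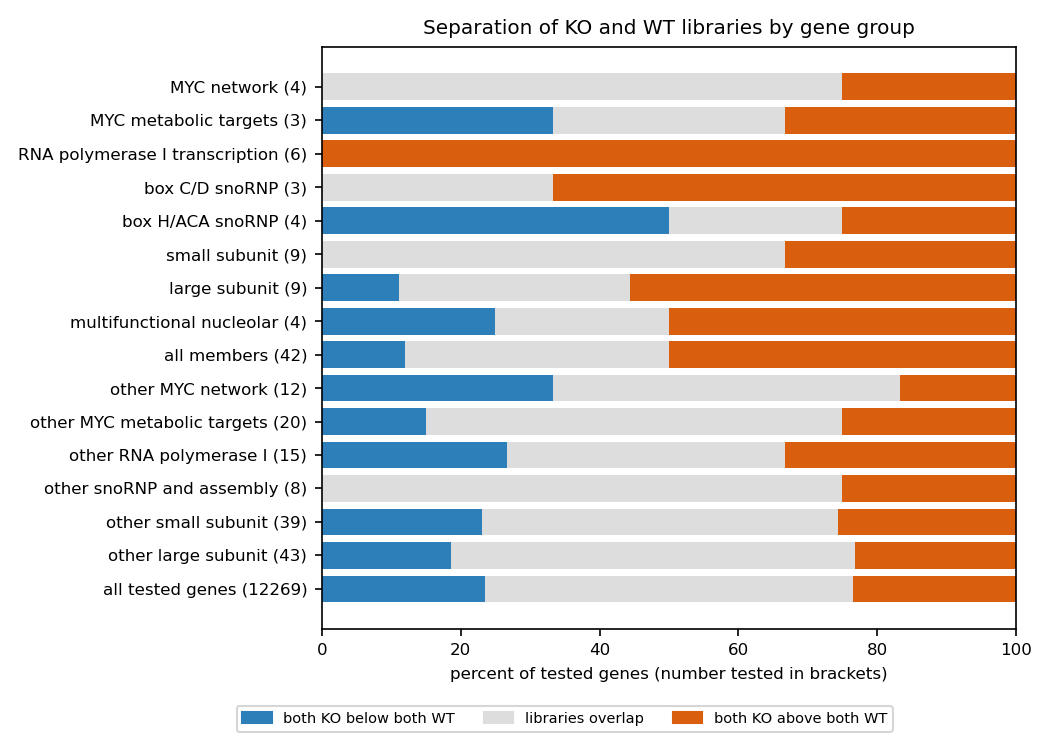
Percent of tested genes (horizontal axis) whose KO libraries both lay below (blue), overlapped with (grey) or both lay above (orange) the WT libraries, for each role group of the members, all members, the 6 lists of other pathway genes and all tested genes; the number tested is in brackets. All 6 RNA polymerase I members are above, 21 of the 42 members are, and the share above runs from 16.7% to 33.3% over the 6 other lists, against 23.5% of all genes.

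Fold changes were also set beside the presence of the E-box. The 11 tested members with CACGTG in the window had a median log2 fold change of 0.13, with 7 above 0, and the 25 without it had a median of 0.11, with 16 above 0. Across all tested genes with a window, the median was 0.00 for the 972 with the motif and -0.02 for the 8470 without it. For CACGCG the members' medians were 0.18 with the motif (11 genes) and 0.11 without (25 genes). These are descriptions without a test.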

How the data were processed

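Ribo-depleted total RNA of 4 HCT116 libraries, 2 WT and 2 TOP3B-KO, was measured. The deposited table of estimated counts per gene and the deposited RPKM table were made by the authors; the submitters' processing notes name Salmon 1.10.1 and hg19, while annotation, gene summary and filters are not stated there. The lengths that the deposited RPKM imply had a median of 0.53 of the genomic span (RefSeq) over the 42 members, so levels were not compared between genes. Kit reads are stranded per the labels' protocols, but whether counting used strand is not given, so overlapping and copied genes are uncertain. Not every overlap is named beside its member, such as COG8 over NIP7. Counts were tested with edgeR 4.0.16 (quasi-likelihood F-test, TMM, filterByExpr, genotype alone; R 4.3.3) over 12269 genes, with Benjamini-Hochberg adjustment at 0.05. SE is the size of the log2 fold change over the square root of F, and intervals are 95% at the total degrees of freedom. DESeq2 1.42.0 and limma 3.58.1 (voom, and log2(RPKM + 0.1) on the authors' RPKM), other scaling, no filter, a replicate block and leaving out each library were alternatives. Code was tested on simulated data. Per-library values were given for the MYC network and, per role group, for members with unadjusted p under 0.05 or, where fewer than 2 had that, the 2 of smallest p; other members were described from their values, and in other lists the gene of smallest p each way. Members given per library outside that rule, such as PES1, WDR43 and RRP1B, were chosen after their values were seen. Members and lists were chosen with earlier results of these data known. Floors are 3 counts (0.176 to 0.271 CPM in a library) and cover counting error only. GENCODE 29 gave overlaps; E2F1 and E2F2 differ in name in 1 row between the 2 tables, which is no member.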

Additional observations from a re-analysis of the deposited data

How the results depend on the processing

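Of 618 alternative log2 fold changes of the 42 members, 573 kept their direction and side of the threshold, 38 in 11 members changed sign and 7 in 3 members passed the threshold only under the alternative; of 156 such values of the 12 genes named from other lists, 151 kept both and 0 changed sign. Sign changes were with upper quartile factors, MXD4 (0.0055) and ODC1 (0.041); with no factors, MXD4 (0.11), ODC1 (0.16), DKC1 (0.093), GAR1 (0.074), HEATR1 (0.093) and WDR43 (0.051); on RPKM, MXD4 (0.12), ODC1 (0.16), DKC1 (0.34), GAR1 (0.077), HEATR1 (0.092), WDR43 (0.096) and PES1 (0.0020); by DESeq2, ODC1 (0.0035); without the 3 small RNAs, ODC1 (0.0053); with no filter, ODC1 (0.0089); by limma-voom, DKC1 (2.09) and UTP20 (-0.024); with the replicate block, DKC1 (0.69). Leaving out one library each, edgeR ran from -0.24 to 0.23 in MXD4, from -0.028 to 0.027 in ODC1, from -1.55 to 7.98 in DKC1, from -0.018 to 0.31 in UTP4, from -0.15 to 0.24 in UTP15, from -0.38 to 0.41 in UTP20, from -0.18 to 0.048 in HEATR1, from -0.56 to 0.44 in WDR43, from -0.50 to 0.19 in PES1 and from -0.021 to 0.24 in NIP7; the upper value of DKC1 is against a lone library at 0 and is no bound. With DESeq2 so run on the members chosen by rule, added after seeing the data, the values of changed sign were 0.23 and 0.11 in MXD4. The 618 values hold these DESeq2 fits only for the 18 members given per library by rule. TCOF1 and NPM1 in these DESeq2 fits, described above, are therefore outside that count. Genes called numbered 1 with TMM, 183 by DESeq2, 5 with upper quartile factors, 42 with none, 34 with no filter, 6 on RPKM, and 0 to 575 leaving out one library each (575 without WT replicate 2, 3 without WT replicate 1). Members called were 1 by DESeq2, and 0 to 3 leaving out one library each; in DESeq2, chosen after seeing the data, 0 to 5 (5 without WT replicate 2). Members lower at unadjusted p numbered 2 by DESeq2 and 0 to 5 leaving one out; members higher 3 with upper quartile factors, 9 with none, 7 on RPKM, and 0 to 5 leaving one out. Members below 0 numbered 7 with no factors and 6 on RPKM (10 to 14 leaving one out), and the median was 0.17 with upper quartile factors, 0.29 with none, 0.30 on RPKM and 0.12 to 0.17 leaving one out. Members with KO below WT numbered 1 with no factors, 1 on RPKM and 6 to 12 leaving one out. The cause was not tested. Same-numbered samples share a replicate number, and their column headers carry neighbouring S numbers. Whether they were prepared in pairs is not stated (correlation of deviations 0.0584 across genes, 2 groups of 2). With the replicate block 1 gene was called, 0 members were, and 0 members were higher at unadjusted p, against 1. Low counts limit MXD4, DKC1, UTP20, BYSL and NCL most, and why the DKC1 libraries lay so far apart was not tested.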

Other observations

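Several members carry small nucleolar RNA genes in their introns, which are made from the host's transcript. The table had 21 such rows inside 9 members on the same strand, and 16 of them were listed at 0 in every library. SNORA80B, inside ODC1, had 3 and 6 counts in WT and 12 and 24 in KO, while ODC1 itself did not separate the groups. SNORD91B and SNORD91A, inside TSR1, had 11 and 12 and 6 and 5 counts in WT, and 12 and 15 and 9 and 17 in KO. These rows had too few counts for a reading at this depth, and no test is given.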
